A study of Homo sapiens with 12 samples.

Results

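LCE1B, PRAMEF7, LCN15 and SERPINB5 were 4 genes chosen by their large rises with camptothecin from a level near background, out of 16922 genes with a probe on the bead array, and each was read by 1 probe. The arrays measured RNA of LNCaP-S14 cells, a line made from the LNCaP prostate adenocarcinoma cells by stable overexpression of SKP2, which all groups carried, the DMSO control included. The cells had received DMSO (the vehicle), SMIP004 at 40 uM, roscovitine at 20 uM, camptothecin at 500 nM or bortezomib at 50 nM for 24 h. There were 10 samples, 2 in each of the 5 groups, on 12 arrays, because each SMIP004 sample was measured on 2 technical arrays. The labels call the last 3 compounds positive controls; camptothecin traps topoisomerase I on DNA, bortezomib inhibits the proteasome and roscovitine inhibits cyclin-dependent kinases.

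The 4 genes have separate known roles. LCE1B encodes a late cornified envelope protein, one of the small proteins that are crosslinked under the membrane of the outermost epidermal cells, and lies in the epidermal differentiation complex on chromosome 1. PRAMEF7 belongs to the PRAME family, leucine-rich repeat proteins of the germline and the early embryo, whose gene cluster is also on chromosome 1. LCN15 encodes a lipocalin, a family of small secreted proteins many of which carry lipophilic molecules, on chromosome 9. SERPINB5 encodes maspin, a clade B serpin of epithelial cells with no protease inhibitor activity, known as a target of p53 and located on chromosome 18. None of the 4 is a usual marker of luminal prostate cells. Topoisomerase I trapping gives breaks in DNA and, where p53 is intact as in LNCaP cells, activation of p53.

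The bases before the annotated starts are shown so that a reader can compare what lies there. The 4 genes were chosen for a rise with camptothecin, so their likeness across the samples follows in part from that choice. The promoter table of RefSeq (GRCh38.p14) held 3 of the 4 genes, PRAMEF7 (chr1:12916360-12916609, plus strand), LCN15 (chr9:136764519-136764768, minus strand) and SERPINB5 (chr18:63476708-63476957, plus strand). Each run has the 250 bases before the start, 5′ to 3′, and capitals mark matches on either strand to the TATA box (TATAAA), the CCAAT box (CCAAT), the GC box (GGGCGG), the AP-1 site (TGANTCA) or the p53 half-site.
PRAMEF7: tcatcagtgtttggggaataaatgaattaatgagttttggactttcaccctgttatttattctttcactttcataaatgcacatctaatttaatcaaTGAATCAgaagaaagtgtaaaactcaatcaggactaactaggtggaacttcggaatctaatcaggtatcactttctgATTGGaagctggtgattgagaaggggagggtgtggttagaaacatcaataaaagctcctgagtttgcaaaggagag
LCN15: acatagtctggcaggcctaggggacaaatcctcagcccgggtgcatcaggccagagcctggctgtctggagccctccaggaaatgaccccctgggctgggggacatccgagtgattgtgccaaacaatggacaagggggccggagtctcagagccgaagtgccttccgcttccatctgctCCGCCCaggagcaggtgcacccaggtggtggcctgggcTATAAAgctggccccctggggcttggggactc
SERPINB5: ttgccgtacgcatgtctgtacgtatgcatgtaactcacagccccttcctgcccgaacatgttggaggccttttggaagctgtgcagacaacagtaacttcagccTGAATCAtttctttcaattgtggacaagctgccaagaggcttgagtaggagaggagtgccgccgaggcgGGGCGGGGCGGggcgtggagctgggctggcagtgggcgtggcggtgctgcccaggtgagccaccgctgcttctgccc
The 3 sequences had no motif in common. A TATA box began 32 bases before the start of LCN15 and had no match in the other 2, against 11.1% of 27305 promoters of the same length. The AP-1 site matched once in PRAMEF7 and once in SERPINB5 (6.60% of all promoters). GC box matches were 2 in SERPINB5, overlapping each other by their end base, and 1 in LCN15 (42.3% of all promoters), and a CCAAT box was found in PRAMEF7 (33.0%). The E-box (CANNTG, not in capitals) matched 3 times in LCN15 and 2 times in SERPINB5 (62.2%), and the p53 half-site matched in 0 of the 3 windows, against 5.53% of all promoters. PRAMEF7 had 36.4% G and C with 1 CpG, below the median of all promoters (58.0% and 11 CpG), whereas SERPINB5 had 60.0% with 13 CpG and LCN15 63.6% with 6 CpG. A match is a run of letters and not a measured site. Only full matches were counted, so a window with no match may still hold a similar run or a working site.

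Over the arrays, 8737 to 9909 of 24526 probes were detected, which means a detection p under 0.01 against the negative control beads, and the mean intensity was 473 to 802. DMSO and SMIP004 arrays shared one slide and the other 3 groups the second, so slide and compound cannot be told apart where bortezomib, camptothecin or roscovitine is compared with DMSO. The 2 roscovitine samples stood apart from each other: the SD over genes of their log2 difference was 0.766, against 0.130 to 0.224 between the 2 samples of every other group, and 1216 of 8783 tested genes differed at least 2-fold, against 1 to 10. Their values are therefore given one by one, and tests are also given without them. The design text calls the 2 SMIP004 samples biological replicates and says nothing of this for the other groups, so p-values measure the spread between these samples.

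LCE1B had intensities of 78.3 and 87.8 on the DMSO arrays and of 3272.5 and 2940.5 on the camptothecin arrays. SMIP004 arrays read 103.8, 94.3, 106.8 and 98.0, bortezomib arrays 74.3 and 79.5, and roscovitine arrays 109.7 and 1394.4. Both camptothecin arrays and roscovitine sample 2 detected the probe, with a detection p of 0, and the other 9 arrays did not, with detection p from 0.0271 to 0.471. On the normalised log2 scale its level was 11.96 ± 0.14 (SD, n = 2) with camptothecin and 5.02 ± 0.044 (SD, n = 2) with DMSO, a difference of 6.94. Because no DMSO array detected the probe, the rise is a bound: camptothecin was at least 45.0-fold higher than the lowest detectable signal of the DMSO arrays, at least 46.5-fold higher than that of SMIP004 and at least 34.9-fold higher than that of bortezomib.

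PRAMEF7 read 76.1 and 94.8 with DMSO, against 2622.5 and 2380.6 with camptothecin. Its intensities were 121.4, 123.2, 121.5 and 140.5 with SMIP004, 104.8 and 91.6 with bortezomib, and 132.8 and 1520.6 with roscovitine. Detection again held for both camptothecin arrays and roscovitine sample 2 alone. The detection p was 0.0136 to 0.0271 on the SMIP004 arrays and 0.0136 in roscovitine sample 1, closer to the threshold than with DMSO (0.184 and 0.0858). Normalised log2 levels were 11.60 ± 0.17 (SD, n = 2) with camptothecin and 5.06 ± 0.090 (SD, n = 2) with DMSO, a difference of 6.54 and at least 35.2-fold. The PRAMEF genes are near-identical copies, and the probe's sequence was not used here, so the signal of this probe may include RNA of other copies.

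LCN15 had intensities of 67.8 and 73.5 with DMSO, 68.8, 64.9, 76.9 and 71.6 with SMIP004, and 66.0 and 60.2 with bortezomib. Detection p in these 8 arrays ran from 0.410 to 0.910, so the probe read as the negative controls did. Camptothecin arrays read 2425.1 and 1842.6, and roscovitine arrays 121.6 (not detected, at a detection p of 0.0226) and 853.5 (detected). The level was 11.35 ± 0.035 (SD, n = 2) with camptothecin against 4.79 ± 0.058 (SD, n = 2) with DMSO, a log2 difference of 6.55 and at least 29.5-fold.

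SERPINB5 did not match the description of a silent gene on every control array: DMSO array 1 detected it (intensity 134.4, detection p of 0.00904) and DMSO array 2 did not (132.0, detection p of 0.0211). Camptothecin arrays read 8272.3 and 6919.3. SMIP004 arrays read 138.5, 136.6, 140.1 and 146.6, all undetected at p from 0.0121 to 0.0181, and roscovitine arrays 170.5 and 3968.5, both detected. Unlike the other 3 genes, it was detected on both bortezomib arrays, at 289.6 and 214.4 (detection p of 0.00151 each). Its log2 level of 13.21 ± 0.084 (SD, n = 2) with camptothecin stood 7.06 above that of DMSO (6.15 ± 0.34, SD, n = 2). No fold over DMSO is given, since 1 of the 2 DMSO arrays detected the probe. Against SMIP004 camptothecin was at least 111-fold higher, and against bortezomib, where both groups were detected, 42.4-fold.

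**Figure D1:**
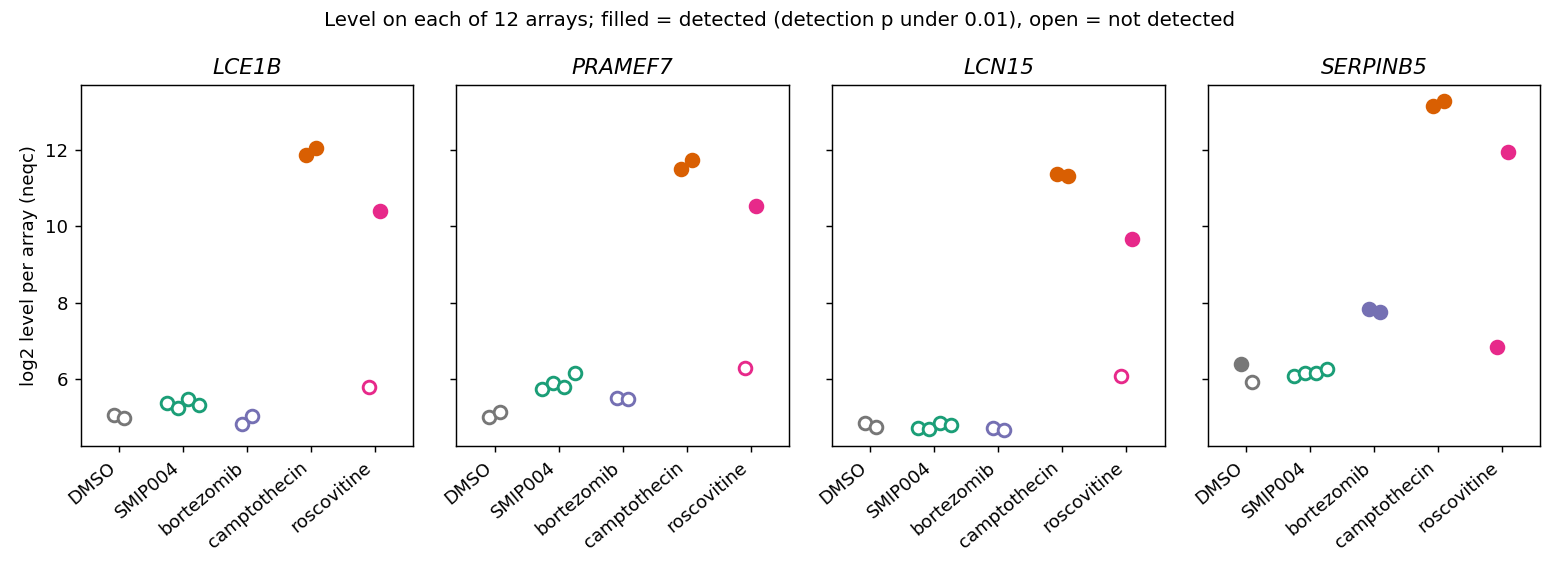
Normalised log2 level (y axis) of each gene on the 12 arrays by treatment (x axis), with filled points for detected and open points for undetected arrays. The 2 camptothecin arrays are highest in each panel, roscovitine sample 2 comes next, and SERPINB5 alone is also detected with bortezomib.

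The order of the group means put camptothecin first and roscovitine second for each of the 4 genes, and no camptothecin sample overlapped with a sample of another group. The first place and its lack of overlap follow from the choice of genes. Roscovitine was second by the mean of 2 samples that read apart, and sample 1 did not detect LCE1B, PRAMEF7 or LCN15. The share of all tested genes without overlap is not given here. Below these 2 groups, LCE1B had SMIP004 above DMSO with no overlap and DMSO overlapping with bortezomib. PRAMEF7 had SMIP004 above bortezomib above DMSO with no overlap, and LCN15 had DMSO, SMIP004 and bortezomib overlapping in sequence. For LCE1B, PRAMEF7 and LCN15 these lower groups were undetected throughout, so their order is an order of background readings. In SERPINB5 the roscovitine samples lay on either side of bortezomib, which was above SMIP004 with no overlap, and SMIP004 overlapped with DMSO.

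The 2 roscovitine samples read differently for each of the 4 genes. In sample 1 the log2 levels were 5.79 for LCE1B, 6.28 for PRAMEF7, 6.07 for LCN15 and 6.83 for SERPINB5. In sample 2 they were 10.40, 10.52, 9.67 and 11.95 in the same order. The difference of sample 2 from sample 1 was 4.61 for LCE1B (at least 15.6-fold), 4.24 for PRAMEF7 (at least 17.0-fold), 3.60 for LCN15 (at least 9.40-fold) and 5.12 for SERPINB5 (34.8-fold, both detected). Sample 2 reached 34.0% of the camptothecin mean for LCE1B, 47.3% for PRAMEF7, 31.2% for LCN15 and 41.7% for SERPINB5, on the linear scale of the normalised level. Which of the 2 roscovitine samples represents the compound was not tested and cannot be settled with 2 samples.

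The comparisons below, none of which holds camptothecin, were tested with limma over 8783 genes, with Benjamini-Hochberg adjustment. The choice of genes also used the DMSO readings, which had to be near background. Only bortezomib against roscovitine is therefore free of both groups that chose the genes. All 4 genes passed the filter on low values, LCE1B, PRAMEF7 and LCN15 through the camptothecin arrays alone. For SMIP004 against DMSO 0 of the 4 were called, where 58.6% of tested genes were. The log2 differences were 0.32 (SE 1.16) for LCE1B, 0.83 (SE 1.07) for PRAMEF7, -0.030 (SE 0.910) for LCN15 and 0.020 (SE 1.29) for SERPINB5, with adjusted p from 0.532 to 0.991. At an unadjusted p under 0.05 none of them passed either, the smallest being 0.460. The spread of the roscovitine samples entered these errors. In a fit without the roscovitine samples 2 of the 4 were called, where 36.7% of tested genes were called higher: LCE1B (SE 0.115, adjusted p = 0.0228) and PRAMEF7 (SE 0.115, adjusted p = 3.99e-05), both undetected in both groups, so no fold is given.

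With bortezomib against DMSO 0 of the 4 were called, where 64.5% of tested genes were, and the smallest unadjusted p was 0.237. SERPINB5 was 1.66 higher on the log2 scale (95% interval -1.33 to 4.65, adjusted p = 0.292). Without the roscovitine samples the same difference had an interval of 1.34 to 1.97 and an adjusted p of 5.45e-07, and SERPINB5 was higher in 2 of 2 bortezomib samples than in both DMSO samples. PRAMEF7 was also called in that fit (0.42, adjusted p = 0.00576), from background readings in both groups, and 38.5% of tested genes were called higher. LCE1B (-0.082, adjusted p = 0.529) and LCN15 (-0.10, adjusted p = 0.372) were not called.

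For roscovitine against DMSO 0 of the 4 were called, where 3.48% of tested genes were called higher. The mean log2 differences were 3.08 (SE 1.16) for LCE1B, 3.34 (SE 1.07) for PRAMEF7, 3.07 (SE 0.910) for LCN15 and 3.24 (SE 1.29) for SERPINB5, with adjusted p of 0.119, 0.0858, 0.0716 and 0.132. All 4 had an unadjusted p under 0.05, from 0.00975 to 0.0368. Taken alone, sample 2 stood 4.88 to 5.80 above the DMSO mean and sample 1 stood 0.68 to 1.27 above it. With either sample left out, 4 of the 4 were called, and the lone sample was then assumed to vary as the other groups did; with sample 1 as the one kept, LCE1B, PRAMEF7 and LCN15 were undetected in both groups.

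Bortezomib against roscovitine was a comparison within one slide and with neither of the groups that chose the genes. LCE1B (-3.16, SE 1.16, adjusted p = 0.0449), PRAMEF7 (-2.92, SE 1.07, adjusted p = 0.0445) and LCN15 (-3.18, SE 0.910, adjusted p = 0.0166) were lower with bortezomib, 3 of the 4, where 30.2% of tested genes were called lower. SERPINB5 was not called (-1.59, SE 1.29, adjusted p = 0.318). A fit of the slide 2 samples alone called 0 of the 4, with adjusted p from 0.0517 to 0.419. Without roscovitine sample 2, the differences of LCE1B (-0.86), PRAMEF7 (-0.80) and LCN15 (-1.37) were between readings undetected in both groups, while SERPINB5, detected on these arrays, was called higher with bortezomib (0.97, adjusted p = 0.000321); without roscovitine sample 1, all 4 were called lower. Either fit rests on a single roscovitine sample.

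Of the 16922 genes on the array, 795, or 4.70%, had a probe detected on no DMSO array and on both camptothecin arrays. A gene was counted and read by that probe alone, so another of its probes could be detected with DMSO. CDKN1A, for instance, was in the set by a probe at 5.54 with DMSO, while its brightest probe read 11.09. That set held LCE1B, LCN15 and PRAMEF7, 3 of the 4, and not SERPINB5, since DMSO array 1 detected it. The 3 genes were chosen for this rise, so their place in the set says nothing further. Of the 10 genes of the set with the largest differences, the other 7 are given by their bounds over the lowest detectable signal of the DMSO arrays. CEACAM1, a cell adhesion molecule, was at least 41.6-fold higher, PLA2G4D, a phospholipase of stratified epithelium, at least 32.2-fold, and PROCR, the protein C receptor, at least 32.3-fold. The bound was 37.1-fold for ZSCAN4, a zinc finger protein of the early embryo, 37.7-fold for SFN, the p53 target 14-3-3 sigma, 16.8-fold for RNASE7, an antimicrobial ribonuclease of skin, and 16.01-fold for PRODH, proline dehydrogenase and also a p53 target.

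In roscovitine sample 2, 231 of the 795 were detected (29.1%), against 93 (11.7%) in sample 1, 212 (26.7%) on all 4 SMIP004 arrays and 173 (21.8%) on both bortezomib arrays. Over the 231 detected genes the level of sample 2 was at a median of 84.1% of the camptothecin mean, with quartiles of 51.3% and 115%, and 146 of them lay below that mean, as the 3 genes of the set did. Several other genes of the first 10 had lower shares. SFN, at a log2 level of 11.70 with camptothecin, and RNASE7, at 10.53, were undetected in roscovitine sample 2, and CEACAM1, PLA2G4D and PROCR were detected there at 6.43%, 5.22% and 4.24% of camptothecin. PRODH stood at 34.2%, and ZSCAN4 exceeded camptothecin, at 175%.

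**Figure D2:**
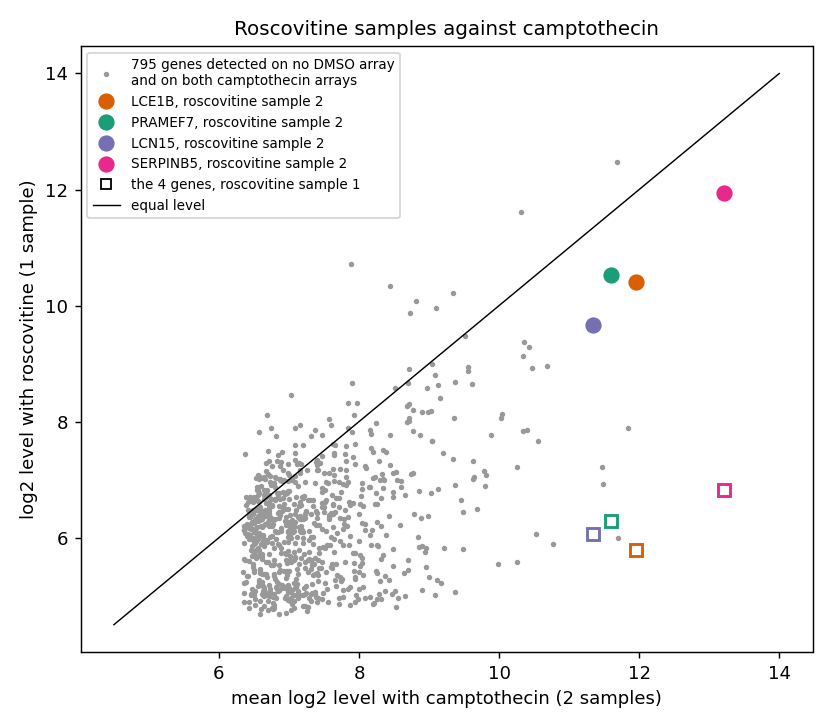
Log2 level in a roscovitine sample (y axis) against the mean log2 level with camptothecin (x axis). Grey points (sample 2) are 795 genes with a probe detected on no DMSO array and on both camptothecin arrays. The 4 genes are in colour (circles sample 2, squares sample 1). The circles lie 1.08 to 1.68 below the line of equal level, while the squares lie near the background.

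The families of the 4 genes were read in the camptothecin comparison from lists that leave the 4 genes themselves out. Over all tested genes 31.7% were called higher and 31.7% lower, with a median log2 difference of -0.000449. Among 51 other listed genes of the epidermal differentiation complex and cornified envelope, 45 had a probe and 10 were tested, and 10 rose, with a median of 2.06, or 0.77 with the genes undetected in DMSO at their bounds. Of these 10, 9 were detected on no DMSO array and 6 passed the filter through camptothecin alone, which had to make them differ, so the count is not support by itself. LCE1A (3.74, at least 4.23-fold), LCE1E (3.21, at least 2.79-fold) and TGM5 (3.05, at least 2.64-fold), a transglutaminase that crosslinks the envelope, had the largest log2 differences from their DMSO readings, which were undetected. The defining structural proteins loricrin (LORICRIN) and involucrin (IVL) were detected on none of the arrays, and TGM1, a further transglutaminase, was detected on all 4 SMIP004 arrays, at a log2 level of 7.85 against 7.03 with camptothecin. TGM3, also a transglutaminase, was not tested; it read 6.68 with DMSO, where 1 of 2 arrays detected it, and 5.14 with camptothecin, undetected. In roscovitine sample 2, 2 of the 10 were detected, LCE1A and EVPL (envoplakin), and none stood above the camptothecin mean.

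In the PRAME family 11 of 24 other listed genes had a probe and 9 were tested, of which 6 rose, 1 fell and 2 did not pass, with a median of 2.27, or 2.06 at the bounds. PRAMEF12 (6.16, adjusted p = 0.00172) and PRAMEF5 (2.06, adjusted p = 0.0380), each detected on 1 of 2 DMSO arrays, rose, as did PRAMEF10 (adjusted p = 0.00852, at least 4.72-fold), PRAMEF4 (adjusted p = 0.0109, at least 7.34-fold), PRAMEF9 (at least 5.08-fold) and PRAMEF8 (at least 1.599-fold), which no DMSO array detected. PRAMEF6 (2.27, adjusted p = 0.0530) and PRAME itself (0.031, adjusted p = 0.861), which was detected on every array, did not pass. LRRC14, a more distant relative, was called lower (-0.29, adjusted p = 0.0490), a call lost when any one sample of the DMSO, camptothecin, bortezomib or SMIP004 groups was left out. The number that rose was 3 without DMSO sample 2 and 3 without camptothecin sample 1, and 7 without the roscovitine samples. Of the 9 tested, 5 passed the filter through camptothecin alone: PRAMEF4, PRAMEF6, PRAMEF8, PRAMEF9 and PRAMEF10. No DMSO array detected these 5, so the filter had to make them differ. Their adjusted p and the count that rose are not support by themselves.

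The PRAME genes and the cornified envelope genes read differently in roscovitine sample 2. Of 9 PRAME family genes detected with camptothecin 8 were detected there and 5 stood above the camptothecin mean: PRAMEF4 (10.22 against 9.34), PRAMEF9 (10.08 against 8.81), PRAMEF5 (9.87 against 8.84), PRAMEF6 (8.46 against 7.03) and LRRC14 (8.23 against 7.71). PRAMEF7 was below it (10.52 against 11.60), as were PRAMEF12 (11.51 against 12.55) and PRAMEF10 (8.67 against 8.71). The contrast between the families was not tested, and the near-identical copies are not independent readings.

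**Figure D3:**
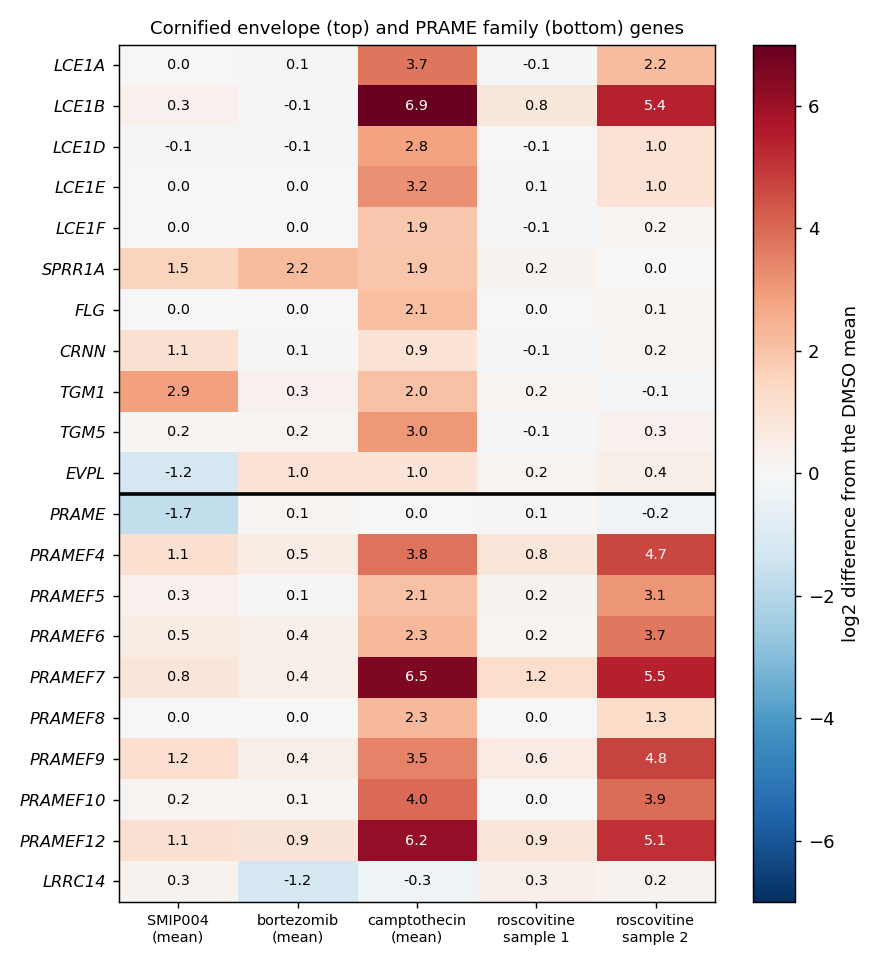
Log2 difference from the DMSO mean (colour and printed value) in each treatment (columns) for the cornified envelope genes (top) and PRAME family genes (bottom) detected on both camptothecin arrays. Differences from undetected DMSO readings are not measured folds. In roscovitine sample 2 PRAMEF4, PRAMEF5, PRAMEF6 and PRAMEF9 exceed their camptothecin values.

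Lipocalins other than LCN15 mostly stayed below the filter, with 3 of 18 on the array tested. APOD, apolipoprotein D, rose by 3.77 from a level detected with DMSO (7.92 to 11.70). LCN2 (0.16, adjusted p = 0.352) and APOM (0.46, adjusted p = 0.0569) did not pass, APOM being called without the roscovitine samples (adjusted p = 0.00319). No DMSO array detected APOM, and its camptothecin level (6.31) lay near the lowest detectable signal. LCN2 was instead detected with SMIP004 (9.19) and bortezomib (7.69). In the clade B serpins 1 of 10 on the array was tested, SERPINB8, which rose with camptothecin (3.02, at least 4.04-fold) and was at 9.10 with SMIP004 and 9.41 with bortezomib against 8.48 with camptothecin. Roscovitine sample 2 did not detect SERPINB8 (5.51).

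SERPINB5 stands in the list of p53 targets, so the other genes of that list are given beside it. Of 32 tested targets 30 rose and 0 fell, with a median of 2.39, and without the roscovitine samples 32 rose. Of these targets, 6 were detected on no DMSO array. The filter was passed through camptothecin alone by 5, SFN among them, so their rise is not support by itself. TP53I3 (7.07), a quinone oxidoreductase detected on 1 of 2 DMSO arrays, SFN (at least 37.7-fold) and IGFBP3 (at least 5.99-fold), an insulin-like growth factor binding protein, were among those that rose, the latter 2 detected on no DMSO array. ZMAT3 (0.29, adjusted p = 0.418) and CCNG2 (0.84, adjusted p = 0.0719) did not pass. Of the 32, 23 were detected on both DMSO arrays, 27 on all 4 SMIP004 arrays and 25 on both bortezomib arrays. CDKN1A, the cyclin-dependent kinase inhibitor p21, read 13.50 with SMIP004, 13.74 with bortezomib, 14.92 with camptothecin and 11.09 with DMSO. The targets did not move alike in roscovitine sample 1. TP53I3 was at 9.56 there against 6.28 with DMSO, and CDKN1A at 12.68 against 11.09. GADD45A (9.76 against 9.79) and PPM1D (9.03 against 9.08) stayed near their DMSO levels. SERPINB5 was at 6.83 against 6.15, a smaller difference than those of TP53I3 and CDKN1A but larger than those of GADD45A and PPM1D.

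Of 14 tested cancer-testis genes outside the PRAME family 6 rose, 0 fell and 8 did not pass, with a median of 0.34, or 0.18 at the bounds, and without the roscovitine samples 7 rose and 2 fell. MAEL, a germline gene of the piRNA pathway, rose at least 3.26-fold from undetected DMSO readings, and MAGEC2 (0.98) and MAGEA12 (0.71), detected in both groups, rose as well. MAGEB6 (1.37) and TEX14 (1.36) passed the test, but no DMSO array detected them and their camptothecin levels lay near the lowest detectable signal. MAEL and MAGEB6 passed the filter through camptothecin alone, which had to make them differ, so their rise is not support by itself. With each array scaled to one median, 3 rose.

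**Figure D4:**
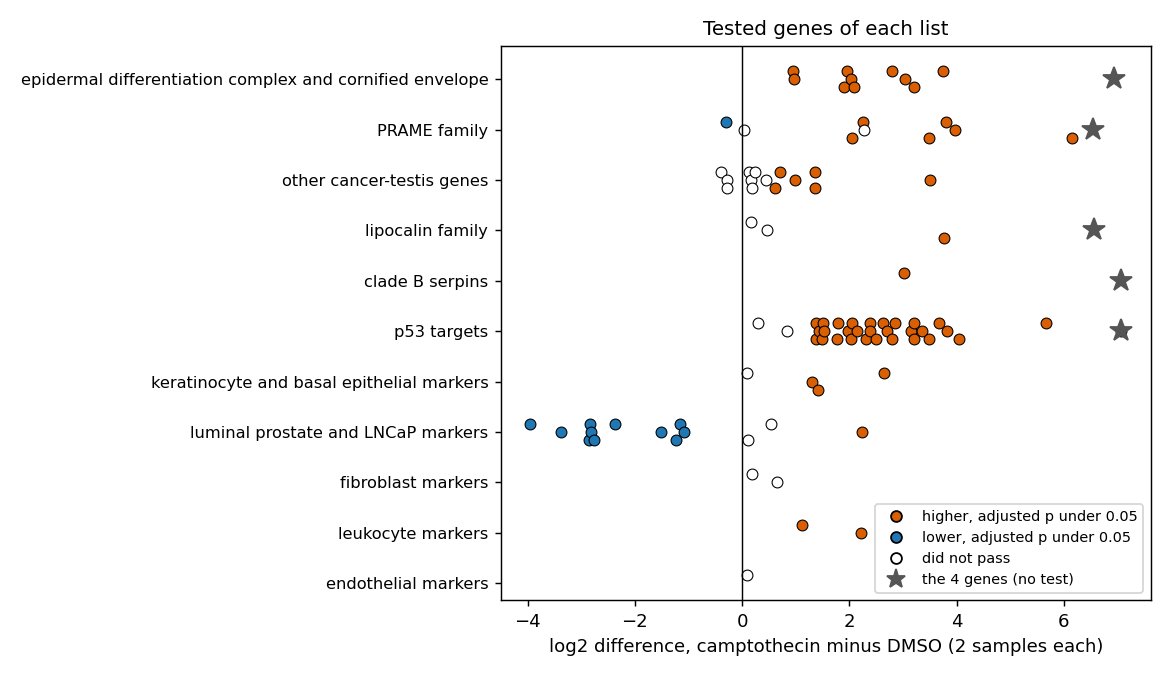
Log2 difference of camptothecin from DMSO (x axis, 2 samples each) for the tested genes of each list (rows), coloured by call at an adjusted p under 0.05, with the 4 genes as stars. The stars lie at 6.54 to 7.06, TP53I3 at 7.07 and PRAMEF12 at 6.16, and differences of genes undetected with DMSO are from background readings.

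Markers of other cell types were read for the same arrays. The luminal markers KLK2, KLK3, TMPRSS2 and KLK4 were detected on both DMSO arrays, so defining markers of the labelled prostate origin were present, while STEAP1 was detected on none of the arrays. With camptothecin 11 of 14 tested luminal markers fell, SLC45A3 (-3.95), SPDEF (-3.37) and TMPRSS2 (-2.85) most, and 1, KRT8 (2.23), rose. The summed normalised level of that list was 37500 to 39200 with DMSO, 17600 to 17800 with camptothecin, 39000 in roscovitine sample 1 and 27500 in sample 2. It was lower still with SMIP004 (9760 to 10200) and bortezomib (9330 to 9350). Of 15 keratinocyte and basal markers on the array 4 were tested and 3 rose: TRIM29 (at least 5.34-fold), and KRT15 and LAMB3, whose camptothecin levels lay near the lowest detectable signal, with no DMSO array detecting any of the 3, while the defining keratins KRT5, KRT14 and KRT1 were detected on no array. That list summed to 2950 to 3090 with DMSO, 3700 to 3810 with camptothecin and 8120 to 8150 with SMIP004, and most of it was KRT10, at 2500, 2660 and 7540. Among other types, 2 of 2 tested leukocyte markers rose (CD68, 2.22, and CD14, undetected with DMSO) with PTPRC undetected on every array. The 2 fibroblast markers (COL1A1, PDGFRA) and the 1 endothelial marker (VWF) tested did not pass. COL1A1 (0.66) was called without the roscovitine samples (adjusted p = 0.0208). No DMSO array detected COL1A1, however, and its camptothecin level (6.36) lay near the lowest detectable signal.

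The genes that lie next to the 4 on the chromosome were taken from the gene order of GRCh38.p14, the nearest 5 with a probe on either side. For LCE1B 5 of 10 rose, LCE1D (at least 2.40-fold), LCE1E (at least 2.79-fold) and LCE1F (at least 1.25-fold) before it and LCE1A (at least 4.23-fold) and SPRR1A (at least 1.18-fold) after it. No DMSO array detected these 5, and the LCE1 genes passed the filter through camptothecin alone, which fixed their direction. The other 5 (KPRP, LCE2A, SMCP, IVL, SPRR4) were detected with neither DMSO nor camptothecin. Around PRAMEF7 6 of 10 rose, all of them PRAMEF genes, 1 did not pass (PRAMEF6) and HNRNPCL1, PRAMEF1 and PDPN were not tested. Among those that rose, PRAMEF4, PRAMEF8, PRAMEF9 and PRAMEF10 passed the filter through camptothecin alone, which fixed their direction. LCN15 lay between genes of mixed direction: PHPT1 (1.98), MAMDC4 (2.40) and AGPAT2 (0.48) rose, TMEM141 (-0.98), RABL6 (-0.79) and DIPK1B (-0.45) fell, and the lipocalins LCN8, LCN6 and LCN10 beside it were detected with neither DMSO nor camptothecin. For SERPINB5, VPS4B (0.68) and KDSR (0.64) rose and PHLPP1 (-1.23) fell, while the 5 serpins that follow it, SERPINB12, SERPINB13, SERPINB4, SERPINB3 and SERPINB11, were undetected in both groups. Of all 40 neighbours 16 rose, 4 fell, 1 did not pass and 19 were not tested.

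The 10 samples gave each gene a profile, and Pearson correlations with it are a description, since the same 10 samples enter every pair and the camptothecin samples and roscovitine sample 2 lie far from the rest. Between the 4 genes r was 0.996 for LCE1B with PRAMEF7 and with LCN15, 0.991 for PRAMEF7 with LCN15, and 0.966 to 0.969 for SERPINB5 with each of the others. Because the 4 were chosen for their camptothecin rise, these high values follow in part from the choice. Of 8782 other genes, 18 had an r above 0.99 with LCE1B, 11 with PRAMEF7, 14 with LCN15 and 2 with SERPINB5. The 5 most alike LCE1B were RASAL1 (0.997), PRAMEF7, JUNB, LCN15 and LHX3. For PRAMEF7 they were MBD6 (0.997), ZNF219, LCE1B, PRAMEF12 and LHX3, and for LCN15 PRODH (0.998), ITGA3, LCE1B, SUGCT and ZNF219. SERPINB5 was most like LAMTOR3 (0.992), ZNF385A (0.991), P3H2, TMPRSS7 and CDIP1, none of which was among those of the other 3 genes. RASAL1, a Ras GTPase-activating protein, read 9.63 and 9.61 with camptothecin, 5.24 and 8.65 in the 2 roscovitine samples and 5.12 with DMSO, and LHX3, a LIM homeobox factor of the pituitary, read 9.16 and 9.17, 4.86 and 8.41, and 4.79. LAMTOR3, a scaffold protein detected on both DMSO arrays, moved over a narrow span, from 10.82 with DMSO to 11.97 and 12.02 with camptothecin.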

How the data were processed

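RNA of 12 arrays was hybridised by the authors to Illumina bead arrays and summarised by the scanner software to 1 intensity and 1 detection p-value per probe, deposited without normalization; the deposited log2 values of the same arrays, whose method is not given in the sources used here, served as an alternative. Intensities were processed with neqc of limma 3.58.1 in R 4.3.3 (normexp background from the detection p, offset 16, quantile normalization, log2). Technical SMIP004 arrays were averaged, leaving 10 samples. Of 24526 probes, 21834 had a gene in the platform annotation and 2692 had none; 11111 were detected (p under 0.01) on every array of a group, and the brightest per gene gave 8783 genes. Groups were fitted together with lmFit and eBayes (5 residual and 2.95 prior degrees of freedom), with calls at an adjusted p under 0.05 after Benjamini-Hochberg. The fit was tested on simulated data. Bounds ("at least") set the camptothecin mean against the lowest detected signal of each array. The number of arrays limits the precision.

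The 4 genes and the lists were chosen with earlier results of these data known, and camptothecin against DMSO is given for the 4 genes with no test. In each list, the genes named were up to 3 with the largest change that passed and any of a count of 5 or fewer. Also named were the 5 most correlated with each gene and the 5 neighbours with a probe on either side. The 10 largest differences came from genes with a probe detected on both camptothecin and no DMSO arrays. Defining markers, CDKN1A, TGM1, PRAMEF genes and p53 targets shown for roscovitine, and profile examples were named after their values were seen. Same-numbered samples did not deviate together (correlations -0.187 to 0.0931, 0 of 10 pairs over 0.1), so the labels' numbers were not used as pairs. Alternatives were the deposited log2 values, no background correction, median scaling, offset 50, no filter, a detection p of 0.05, 1 technical array, a trended robust fit, every probe, a replicate block, slide 2 alone, no roscovitine samples and each sample left out. Figures used matplotlib.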

Additional observations from a re-analysis of the deposited data

How the results depend on the processing

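The camptothecin differences kept their sign under every alternative run, which is not support by itself, since they chose the genes. For LCE1B, PRAMEF7, LCN15 and SERPINB5 they were 5.61, 5.23, 5.24 and 6.20 without background correction, 5.59, 5.21, 5.23 and 6.18 in the deposited log2 values, and 5.92, 5.54, 5.42 and 6.50 with offset 50; median scaling, which moved the median of all genes to -0.298, gave 6.65, 6.29 and 6.31 for the first 3. Leaving out 1 sample gave 6.84 to 7.04, 6.42 to 6.66, 6.51 to 6.60 and 6.83 to 7.30. The number of the 4 genes called for bortezomib against roscovitine fell from 3 to 1 without background correction, in the deposited values, with offset 50 and with no detection filter, to 0 with slide 2 alone, and ran from 0 to 4 with a sample left out: 0 without either bortezomib sample and 1 without any one DMSO, SMIP004 or camptothecin sample. Without the roscovitine samples 2 were called for SMIP004 and 2 for bortezomib against DMSO (0 to 2 with a sample left out), and for roscovitine against DMSO 0 to 4. Genes called for roscovitine against DMSO numbered 674, 346 with median scaling, 332 with the replicate block and 0 to 4986 with a sample left out; the replicate block changed no call of the 4 genes and kept the bortezomib against roscovitine count at 3. Signs turned near 0 for LCE1B (0.034) and LCN15 (0.041) in bortezomib against DMSO with median scaling and for SERPINB5 in SMIP004 against DMSO with the first technical array (-0.025). With a sample left out LCE1B ran from -0.19 to 0.023 for bortezomib, LCN15 from -0.088 to 0.029 and SERPINB5 from -0.22 to 0.26 for SMIP004 against DMSO, and SERPINB5 from -4.15 to 0.97 for bortezomib against roscovitine, higher with bortezomib without roscovitine sample 2. The causes were not tested. Signals not above the negative controls limit what can be said of LCE1B, PRAMEF7 and LCN15 outside the camptothecin arrays and roscovitine sample 2.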

Other observations

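A further gene group was read after the values of PRAMEF7 and ZSCAN4 had been seen, and so carries no test: 27 genes known from the cleavage-stage human embryo, outside the PRAME family, of which 17 had a probe. On both camptothecin arrays 6 of the 17 were detected, against 3 on both DMSO arrays, 4 on both bortezomib arrays, 5 on all 4 SMIP004 arrays, 4 in roscovitine sample 1 and 7 in roscovitine sample 2.

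The zinc finger gene ZSCAN4 had a log2 level of 5.86 with DMSO, 11.68 with camptothecin and 12.48 in roscovitine sample 2. FAM90A1 read 5.33, 10.31 and 11.60 in the same order, and MBD3L2, a relative of the methyl-CpG binding proteins, 5.17, 8.73 and 9.87. The tripartite motif genes TRIM48 (7.08, 11.77 and 12.68) and TRIM51 (9.62, 14.37 and 14.33) were detected with DMSO and higher in both other conditions, whereas TRIM49 read 7.06, 7.26 and 7.44. CCNA1, a germline cyclin, was undetected on both DMSO arrays (5.56) and on both camptothecin arrays (6.08). It was detected on all 4 SMIP004 arrays (6.58) and in roscovitine sample 2 (8.84). For 6 of the 7 genes detected in roscovitine sample 2 the level was above the camptothecin mean, while for LCE1B, PRAMEF7, LCN15 and SERPINB5 it was below. The homeobox genes DUXA, ARGFX, DPRX and TPRX1 and the factor KLF17 were detected on none of the arrays. The list has copies with near-identical sequence, so single members are uncertain.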
